A study of Mus musculus with 12 samples.

Results

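The knockdown of lncRNA8276, a long noncoding RNA, was compared with the control virus 3NC in mouse testis. The comparison used 6 of the 12 RNA-seq libraries of the study: the 3 labelled 8276KD and the 3 labelled 3NC, chosen by their labels alone. All 12 libraries came from testes of F1 mice of a strain written as IRC, and the testes had been transfected with a virus. 8276KD testes received virus inhibiting lncRNA8276, and the 3NC control is listed beside it in the design. From that order alone 3NC is taken here as the control of the knockdown. The remaining groups, 3 libraries each, are 8276OV (virus overexpressing lncRNA8276) and 5NC, taken as its control in the same way. They enter here through the shared estimate of spread and as a second reference. The labels give no age, virus type, promoter, targeted cell type, dose or interval, and do not say whether a library is 1 animal or a pool. The p-values therefore measure the spread between libraries, which may be technical. No value for lncRNA8276 was used here, so its depletion was not checked.

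Long noncoding RNAs are transcripts that are not translated, and some regulate other genes from the nucleus or bind proteins and RNAs in the cytoplasm. Testis is built from seminiferous tubules, in which germ cells pass from spermatogonia through meiosis to spermatids beside supporting Sertoli cells. Peritubular muscle-like cells wrap the tubules, and Leydig cells between them make testosterone. Whole tissue was sequenced, so fewer cells of a type and less RNA per cell cannot be told apart.

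The 6 libraries held between 15252025 and 15677904 gene counts. Of 20788 genes, 16395 had enough counts to be tested, and levels are given as CPM, the counts scaled to a common library size. The library 3NC 2 stood apart: 787 genes were more than 2-fold above every one of the other 5 libraries, against 74 in 8276KD 1 and 1 to 19 in the remaining 4. Its median correlation with the other 11 libraries, over log2 levels, was 0.948, against 0.974 to 0.984 for those 11. The passing genes, the genes with the next smallest p-values and the gene lists are given also without 3NC 2. Leaving it out was planned beforehand, because earlier results of these data had found it high in leukocyte and interferon genes. Defining genes of testis cell types were present in all 6 libraries. Prm2, a protamine of elongating spermatids, was at 3977 to 5630 CPM, and Insl3, a Leydig cell hormone, was at 391 to 743 CPM.

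Knockdown testes differed from 3NC in few single genes. Alb, which encodes serum albumin, and Neo1, which encodes the netrin and RGM receptor neogenin, were higher, and Gm15127, an X-linked gene of unknown function, was lower. These 3 of 16395 genes (0.0183%) passed an adjusted p of 0.05 in edgeR's quasi-likelihood test with Benjamini-Hochberg adjustment, 0.0122% higher and 0.0061% lower. At an unadjusted p of 0.05 there were 1424 genes (8.69%). Without 3NC 2, 2 of 16537 genes passed (0.0121%), Alb and Gm15127, and 1010 (6.11%) had an unadjusted p under 0.05. Using only the 6 libraries compared, no gene passed in edgeR and 831 had an unadjusted p under 0.05. DESeq2 called 23 genes (0.14%), 10 higher and 13 lower, among them the same 3. Leaving out 1 library in edgeR gave 1 gene without 3NC 1, 8276KD 1 or 8276KD 2, 2 genes without 3NC 2 or 8276KD 3, and 9 without 3NC 3.

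Alb (gene ID 11657, RefSeq GRCm38.p6 chr5:90460870-90476602, forward strand) had 66, 44 and 56 counts in the 8276KD libraries and 1, 2 and 0 in 3NC. In CPM these were 4.21, 2.85 and 3.63 against 0.0663, 0.125 and 0. The groups did not overlap, and all 3 knockdown libraries were near each other. The summed counts, 166 against 3, gave a ratio of 54.5 after scaling, with an exact 95% counting interval of 18.3 to 267. The fitted log2 fold change was 5.60 ± 0.54 (SE, n = 3 per group; edgeR adjusted p = 0.00354), and 6.42 ± 0.68 without 3NC 2 (edgeR adjusted p = 0.00964). Alb passed in all 6 edgeR fits that leave out 1 library, but not when 3NC 2 and either of 3NC 1 and 3NC 3 were left out together. Albumin is the main protein that the liver secretes into blood, and its level here was a few CPM.

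Neo1 (gene ID 18007, chr9:58874679-59036614, reverse strand) was at 58.6, 58.5 and 55.3 CPM in 3NC and at 90.4, 88.3 and 95.6 CPM in 8276KD. Every knockdown library was above every control library. They were also above all 3NC, 5NC and 8276OV libraries, of which the highest had 68.3 CPM. The log2 fold change was 0.67 ± 0.085 (SE, n = 3 per group; edgeR adjusted p = 0.0207). The size was the same without 3NC 2 (0.68 ± 0.096), but the edgeR adjusted p was 0.0637. Of the 6 fits that leave out 1 library, only that without 3NC 3 kept Neo1 past the threshold, with fold changes of 0.64 to 0.70 and edgeR adjusted p of 0.0444 to 0.121.

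Gm15127 (gene ID 434866, chrX:148663588-148703849) was at 5.84, 5.76 and 6.56 CPM in 3NC and at 1.53, 1.69 and 2.59 CPM in 8276KD. All knockdown libraries lay below all controls. The log2 fold change was −1.64 ± 0.196 (SE, n = 3 per group; edgeR adjusted p = 0.0168) and −1.68 ± 0.20 without 3NC 2 (edgeR adjusted p = 0.0222). Leaving out 3NC 1, 8276KD 1 or 8276KD 2 moved the edgeR adjusted p to 0.0688, 0.0962 and 0.112. Its counts were not all whole numbers, and how the counting treated reads of similar genes is not given in the sources used here.

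**Figure D1:**
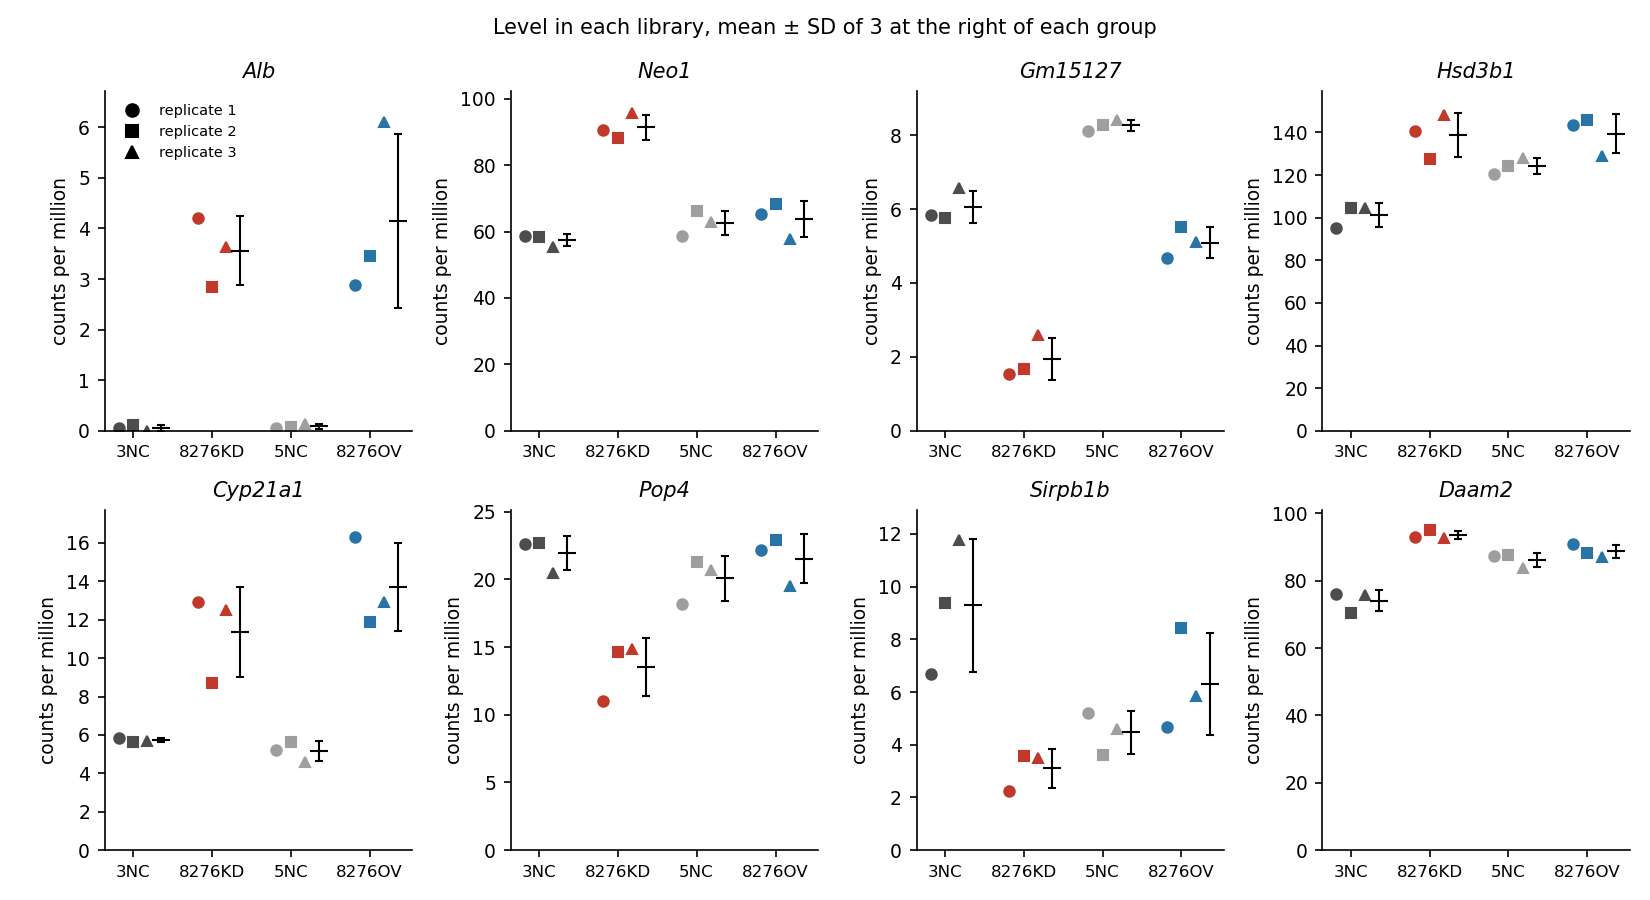
Level in CPM (y axis, linear from 0) of 8 genes in each of the 12 libraries by group (x axis); symbols give the replicate and black bars the mean ± SD of 3. The 3 knockdown libraries (red) stand clear of the 3NC libraries (dark grey) in all 8 genes. Alb, Cyp21a1 and Hsd3b1 are also high in 8276OV (blue), where Daam2 and Gm15127 lie between 3NC and the knockdown.

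The bases before the annotated starts of the passing genes show how unlike they are. Below are the 75 bases before the outermost RefSeq start of Alb and of Neo1, read 5′ to 3′ on the gene's strand from the RefSeq promoter table (GRCm38.p6, chr5:90460795-90460869 and chr9:59036615-59036689), with CG dinucleotides in capitals.
Alb: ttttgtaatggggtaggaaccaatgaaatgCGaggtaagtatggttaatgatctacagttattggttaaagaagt
Neo1: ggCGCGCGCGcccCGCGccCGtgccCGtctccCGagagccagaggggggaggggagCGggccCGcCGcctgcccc
Over the 300 bases from 250 before to 50 after the start, Neo1 held 54 CG dinucleotides and Alb 3, against a median of 7 over 32851 promoters. Only 0.347% of promoters held at least as many as Neo1. CG-rich starts are typical of broadly used genes, and CG-poor starts of tissue-specific ones.

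Gm15127 belongs to a family of X-linked genes that includes Ott, for ovary testis transcribed, and Luzp4. Of the 31-base words in its transcript (2026 bases, GENCODE M21), 60.2% to 91.4% also occur in 11 other genes of the table, so a short read from those words matches more than 1 gene. Gm15109 and Gm8289 hold 71.7% and 28.3% of these words, and their counts were not analysed here. Summed over the 12 genes, the family was at 45.2, 50.2 and 66.5 CPM in 3NC and at 30.6, 33.0 and 35.2 CPM in 8276KD. The groups did not overlap, with means of 54.0 ± 11.1 and 32.9 ± 2.30 CPM (SD, n = 3). Fitted as 1 row in place of its members, the sum had a log2 fold change of −0.71 ± 0.144 (edgeR adjusted p = 0.533), and −0.76 ± 0.157 without 3NC 2 (edgeR adjusted p = 0.564). The family sum therefore did not pass where its member did.

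The values listed for single members went in different directions within the family. Gm15114 was at 3.78, 4.32 and 5.61 CPM in 3NC and at 0, 0 and 0.324 CPM in 8276KD (fitted log2 fold change −5.30, edgeR adjusted p = 0.299). It was also low in 8276OV, at 0.131, 0.147 and 1.46 CPM against 6.03, 5.93 and 6.83 CPM in 5NC. Gm15093 was at 2.72, 0.376 and 8.995 CPM in 3NC and listed at 0 in all 3 knockdown libraries. It was also listed at 0 in all 3 8276OV libraries and in 5NC 1 and 5NC 2, and at 13.4 CPM in 5NC 3. Luzp4 had 6.63, 8.89 and 9.06 CPM in 3NC against 4.09, 5.19 and 5.44 CPM (log2 fold change −0.74 ± 0.22), and Gm15097 and Gm15107 were likewise below all 3NC libraries. Gm15128 went the other way, from 1.92, 2.44 and 2.03 CPM to 3.83, 5.12 and 6.93 CPM (1.31 ± 0.36). Gm10439 was at 2.19, 1.75 and 3.38 CPM in 3NC and at 3.38, 3.82 and 4.73 CPM in 8276KD. Apart from Gm15127, none of the 12 passed the test. Ott was at 3.85, 0 and 4.40 CPM in 3NC and 4.41, 1.62 and 0 CPM in 8276KD. Gm15085 was at 3.85, 11.4 and 4.33 CPM in 3NC and 0, 1.62 and 3.82 CPM in 8276KD. Counts of Ott and Gm15085 were nearly equal in 3NC 1 (58.24 and 58.23), 3NC 3 (64.62 and 63.95) and 8276KD 2 (24.72 and 25.23). Nearly all were listed under 1 gene in 3NC 2 (0.06 and 181.57), 8276KD 1 (68.53 and 0) and 8276KD 3 (0 and 59.49). The values of either gene alone are therefore not read as its level. How reads were divided between them was not tested. Each of the 12 genes had some counts that were not whole numbers. Whether the opposite directions of single members come from how reads were divided among them was not tested either.

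**Figure D2:**
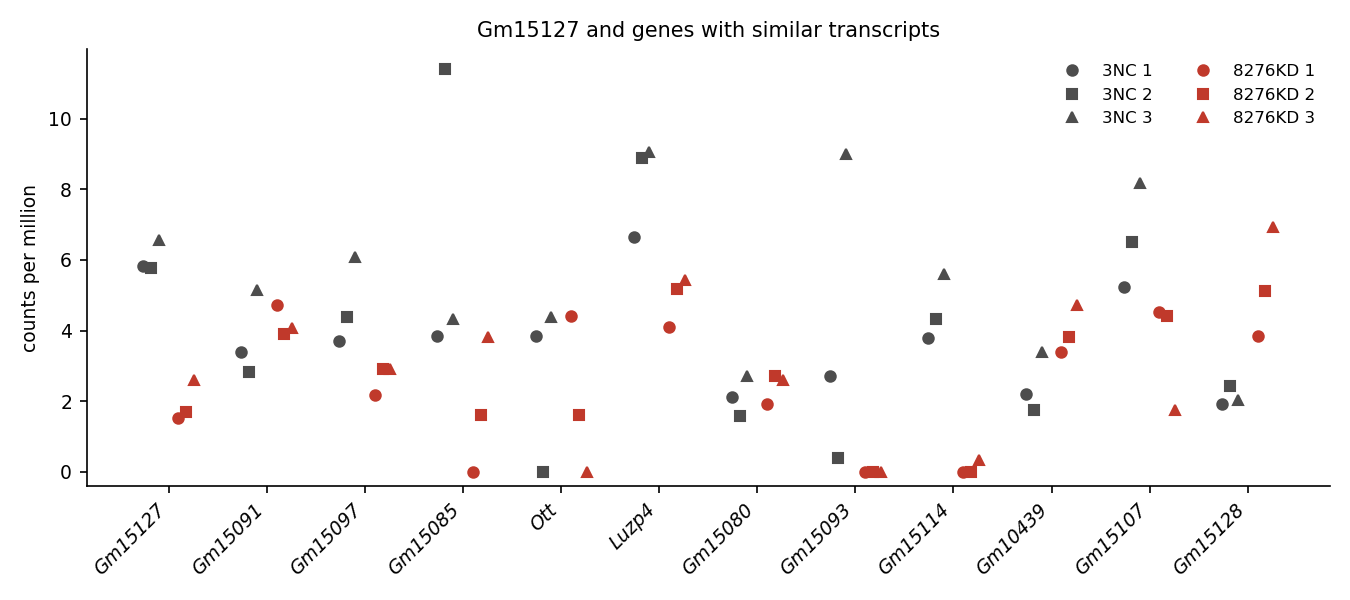
CPM (y axis) of Gm15127 and the 11 genes with similar transcripts (x axis, by falling share of 31-base words), for the 3 libraries of 3NC (grey) and the 3 of 8276KD (red). Gm15114 and Gm15093 are listed at or near 0 in the knockdown, while Gm15128 is listed higher there. How reads were divided among these genes was not tested.

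Gm15114 and Gm15093 also share a promoter sequence, which was less like that of Gm15127 than those of the other members. Their 300-base promoters were identical to each other and 62.9% identical to that of Gm15127, whereas the other members with an entry were 83.1% to 94.8% identical to it. Gaps count as differences in these shares. The 62.9% comes from 217 identical bases, 38 mismatches and 90 gap bases. The 75 bases before the outermost RefSeq start are shown for Gm15127 (chrX:148663513-148663587), Gm15107 (chrX:148180600-148180674) and Gm15114 (chrX:148488874-148488948), all on the forward strand. Those of Gm15093 are the same as those of Gm15114. The longest stretch shared by the 4 genes, 17 bases, is in capitals, and it lies at different distances from that outermost start. The windows of Gm15127, Gm15107 and Gm15114 end at base 17, 50 and 1 before the start used for the 300-base promoters.
Gm15127: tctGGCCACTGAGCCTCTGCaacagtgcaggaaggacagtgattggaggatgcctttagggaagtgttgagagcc
Gm15107: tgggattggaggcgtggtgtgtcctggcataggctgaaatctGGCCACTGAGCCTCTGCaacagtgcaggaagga
Gm15114: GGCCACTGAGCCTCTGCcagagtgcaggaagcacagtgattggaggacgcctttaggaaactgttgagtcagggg

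The genes with the next smallest p-values did not pass, and their values are given as a description. Among those with higher levels was Slc6a15, a neutral amino acid transporter, at 0.133, 0.0626 and 0 CPM in 3NC and 0.894, 1.30 and 0.972 CPM in 8276KD (edgeR adjusted p = 0.298). Tbx3, a T-box transcription factor, was at 1.79, 2.07 and 1.56 CPM in 3NC and 6.64, 4.80 and 3.43 CPM in 8276KD. Daam2, a formin that organises actin, was at 76.0, 70.5 and 75.8 CPM against 93.04, 95.03 and 92.77 CPM (log2 fold change 0.34 ± 0.068). These groups do not overlap. Dnah5, a heavy chain of axonemal dynein, had a log2 fold change of 1.14 ± 0.25, and Snapc5, a subunit of the complex that starts small nuclear RNA genes, one of 0.49 ± 0.11. The uncharacterised 2010109A12Rik was at 4.79, 1.94 and 0.907 CPM in 8276KD and at most 0.203 CPM in 3NC. Without 3NC 2 the log2 fold changes of Slc6a15, Tbx3, Daam2, Dnah5, Snapc5 and 2010109A12Rik were 3.82, 1.56, 0.30, 1.051, 0.45 and 4.55, and none passed the edgeR test. Ranked without 3NC 2, the 10 higher genes with the smallest p-values also held Gm40991, Gata1, Dock5 and Tent4a. Their log2 fold changes in that fit were 2.72, 0.55, 0.64 and 0.48, and none of them passed. The second control did not always lie with 3NC. Slc6a15 was at 1.95, 1.98 and 2.01 CPM in 5NC, above the knockdown. Snapc5 in 5NC (17.1 to 19.0 CPM) overlapped the knockdown (17.9 to 20.7 CPM), and Daam2 in 5NC (83.9 to 87.7 CPM) lay between 3NC and the knockdown. Daam2 in 8276OV (86.9 to 90.9 CPM) also lay between them. Over all tested genes, 1062 (6.48%) had every knockdown library above every 3NC library and 1077 (6.57%) had every one below.

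Among the genes with lower levels was Pop4, a protein subunit of the ribonucleases P and MRP, which trim transfer and ribosomal RNA precursors. It was at 22.6, 22.7 and 20.5 CPM in 3NC and 11.05, 14.7 and 14.9 CPM in 8276KD, a log2 fold change of −0.70 ± 0.13 (edgeR adjusted p = 0.299). The 9 libraries outside the knockdown held 18.2 to 22.9 CPM, all above the knockdown. Of 10 tested genes of the 2 enzymes, 7 had a fold change below 0, with a median of −0.11, against a median of −0.03 over all tested genes (7 and −0.07 without 3NC 2). Sirpb1b and its relative LOC100038947 (Sirpb1c in RefSeq), signal regulatory proteins of myeloid cells, had log2 fold changes of −1.58 ± 0.28 and −1.42 ± 0.27. Their transcripts share 67.4% of 31-base words. The sum with Sirpb1a was at 17.0, 28.7 and 29.8 CPM in 3NC and 6.32, 8.36 and 11.4 CPM in 8276KD (−1.53 ± 0.24; edgeR adjusted p = 0.19). Without 3NC 1 the sum passed, with an edgeR adjusted p of 0.0295. Cd7, a surface protein of T and NK cells, was at 1.06, 1.13 and 1.15 CPM in 3NC and 0.192, 0.259 and 0.324 CPM in 8276KD, although other genes of those cells were high in 3NC 2 alone. Vmn1r181, a vomeronasal receptor, had a log2 fold change of −1.24 ± 0.28. Ankrd12 had −0.43 ± 0.095, Gm7133 −0.86 ± 0.18, and Rps29, a protein of the small ribosomal subunit, −0.36 ± 0.082. Without 3NC 2 the log2 fold changes of Pop4, Sirpb1b, LOC100038947, Cd7, Vmn1r181, Ankrd12, Gm7133 and Rps29 were −0.67, −1.57, −1.30, −2.06, −1.30, −0.45, −0.95 and −0.33, and none passed the edgeR test. Ranked without 3NC 2, the 10 lower genes with the smallest p-values also held Gm21405, Cyp2a12, Mapk10 and 1700015G11Rik. Their log2 fold changes in that fit were −7.22, −0.54, −0.44 and −0.46, and none of them passed. Gm21405, with fractional counts, was at 1.59, 0 and 0.879 CPM in 3NC and 0 in 8276KD (edgeR adjusted p = 0.141 without 3NC 2). In several of the lower genes 5NC was nearer to the knockdown than to 3NC. Cd7 was at 0.189, 0.282 and 0.360 CPM in 5NC, which overlaps the knockdown. Vmn1r181 was at 6.03, 9.04 and 7.70 CPM in 5NC, against 3.96, 6.42 and 7.45 CPM in 8276KD and 12.1, 12.8 and 17.1 CPM in 3NC. Sirpb1b was at 3.60 to 5.22 CPM in 5NC, 2.23 to 3.57 CPM in 8276KD and 6.70 to 11.8 CPM in 3NC.

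DESeq2 called further genes on the same counts, among them Gm15114, Hsd3b1, Daam2, Sirpb1b, Pop4, Cyp21a1, Tbx3 and Slc6a15. The others include Rplp0 and Rps15a, both ribosomal proteins, with DESeq2 log2 fold changes of −0.20 (DESeq2 adjusted p = 0.00697) and −0.71 (DESeq2 adjusted p = 0.0313). Baz2a, a subunit of a chromatin remodelling complex that silences ribosomal RNA genes, had 0.27 (DESeq2 adjusted p = 0.0316). In edgeR the adjusted p of these 3 genes was 0.559.

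Other transcripts of liver secreted proteins were counted beside Alb, at low levels. Of 31 genes of the list, all in the table, 17 were tested, 1 (Alb) passed, and 12 had a fold change above 0 (45.3% of all tested genes did). The median log2 fold change was 0.35, 0.41 without 3NC 2 over 18 tested genes, and 0.26 without 8276KD 1 over 16. It depended on the filter, with 0.91 when no gene was filtered and −0.04 at a minimum count of 30. Ttr, which carries thyroid hormone, was at 0 in all 3NC libraries and at 0.319, 0.324 and 0.453 CPM in 8276KD. Gc, the vitamin D binding protein, was at 0, 0.0626 and 0.0676 CPM against 1.72, 0.519 and 0.453 CPM. Mup3 was at 0 in 3NC and at 0.83, 0.194 and 0.259 CPM in 8276KD. These are a few reads per library, and Ttr, Gc and Mup3 were below the minimum for testing with all libraries. Serpina3k, a protease inhibitor, was at 0.199, 0.0626 and 0.203 CPM against 0.639, 0.648 and 0.842 CPM (2.15 ± 0.55; edgeR adjusted p = 0.559), and Fgb, a fibrinogen chain, had 0.81 ± 0.30.

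Liver list genes with higher levels in these testes overlapped between the groups. Apoh, apolipoprotein H, was at 31.6 to 43.2 CPM in 3NC and 35.6 to 42.0 CPM in 8276KD, and these ranges overlap. Apoc1, an apolipoprotein, was at 26.9, 27.1 and 11.9 CPM in 3NC and 11.1, 12.5 and 13.8 CPM in 8276KD, with 3NC 3 among the knockdown values. It passed only without 3NC 3 (log2 fold change −1.11, edgeR adjusted p = 0.027). Hp, haptoglobin, was at 30.2 CPM in 3NC 2 and 0.541 to 3.72 CPM in the other 5 libraries. The sum over the list ranged from 79.7 to 140.3 CPM in 3NC and 88.7 to 109.9 CPM in 8276KD.

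**Figure D3:**
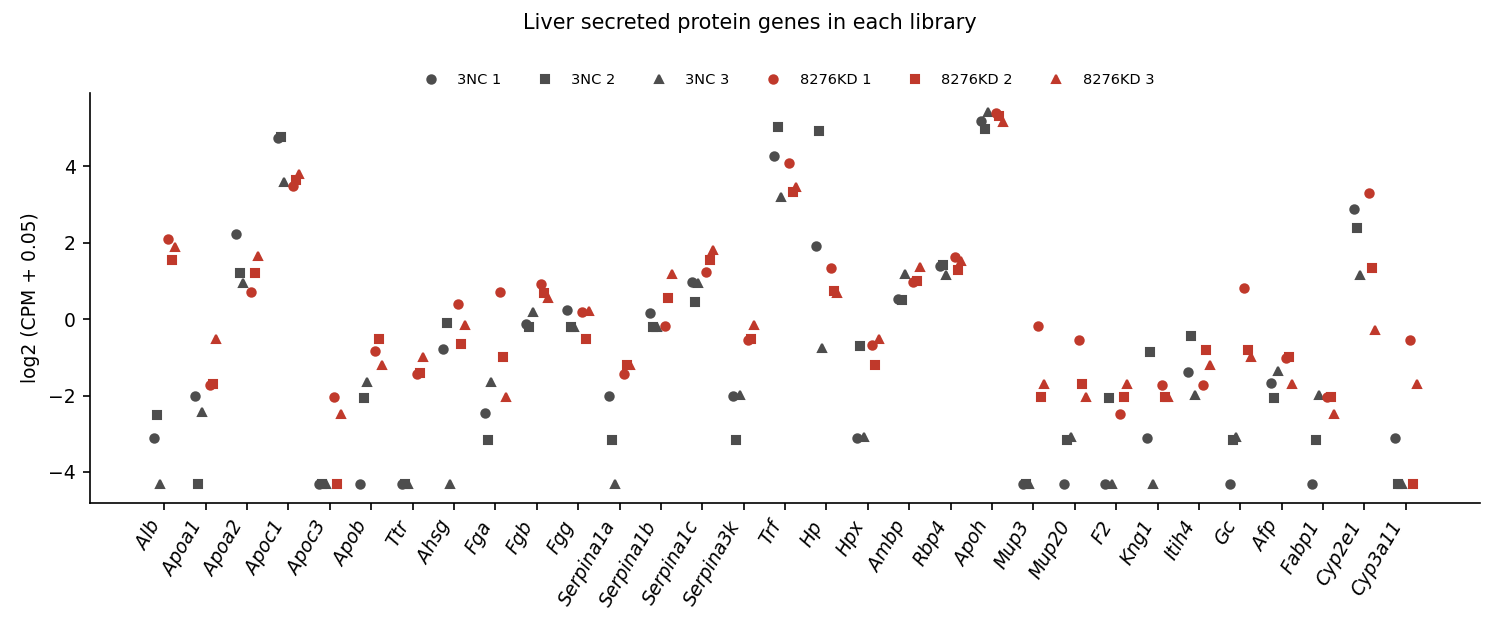
Level on a log2 scale (log2 of CPM + 0.05, y axis) of the 31 liver secreted protein genes (x axis) in the 3 libraries of 3NC (grey) and of 8276KD (red). Alb, Ttr, Mup3 and Gc are higher in all 3 knockdown libraries, while Apoc1, Trf and Apoh overlap between groups.

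Neogenin binds netrins, which guide cell migration, and RGM proteins, which link it to BMP receptors. Of 32 genes of ligands, co-receptors, BMP receptors and their targets, 30 were tested and only Neo1 passed. Fold changes were above 0 in 14 and below 0 in 16, with a median of −0.02, and without 3NC 2 they were above 0 in 19 with a median of 0.10. The ligand Rgma was at 7.63, 5.26 and 6.09 CPM in 3NC and 7.85, 10.9 and 8.55 CPM in 8276KD (0.52 ± 0.23; edgeR adjusted p = 0.559). The knockdown values were all higher, the lowest by a narrow margin. Bmpr2, a BMP receptor, was at 17.6, 29.2 and 21.4 CPM against 17.9, 15.8 and 16.7 CPM, and Id3, a BMP target, at 2.12, 4.76 and 2.23 CPM against 1.60, 1.56 and 1.62 CPM. Both had their highest value in 3NC 2, and without it the log2 fold changes went from −0.44 to −0.22 and from −0.93 to −0.45.

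Leydig cells turn cholesterol into testosterone. Hsd3b1, the dehydrogenase that makes progesterone from pregnenolone, was at 94.9, 105 and 104 CPM in 3NC and 141, 128 and 148 CPM in 8276KD. The groups did not overlap, with the knockdown higher, as in 6.48% of all tested genes (log2 fold change 0.46 ± 0.083; edgeR adjusted p = 0.299). Srd5a1, which reduces testosterone, was at 3.32, 3.13 and 3.52 CPM against 5.36, 6.55 and 3.76 CPM (0.65 ± 0.21). Cyp21a1, the steroid hydroxylase of the adrenal pathway, was at 5.84, 5.63 and 5.68 CPM against 12.9, 8.69 and 12.5 CPM (0.99 ± 0.18; edgeR adjusted p = 0.298). Without 3NC 2 the log2 fold changes of Hsd3b1, Srd5a1 and Cyp21a1 were 0.48, 0.61 and 0.98, and none passed the edgeR test. In 5NC, Srd5a1 was at 6.33 to 7.79 CPM, and Hsd3b1 was at 120 to 128 CPM, both above 3NC. In 8276OV, Hsd3b1 was at 129 to 146 CPM, which overlaps the knockdown. Some other Leydig genes varied widely within the groups. Cyp17a1 was at 749, 721 and 309 CPM in 3NC and 249, 533 and 813 CPM in 8276KD, and Star, which carries cholesterol into mitochondria, at 172, 189 and 131 CPM against 47.1, 138 and 169 CPM. 3NC 3 and 8276KD 1 were low in both genes and in Insl3. Of the 18 genes of the list none passed, 11 were above 0 and 7 below, and the median was 0.04. Above 0 were 14 without 3NC 2 (median 0.10) and 14 without 8276KD 1 (median 0.25). With both left out, 17 were above 0 (median 0.31), beside a median of −0.0065 over all tested genes. These fits kept 3NC 3, which was also low in Cyp17a1, Star and Insl3. The sum was lowest in 8276KD 1 (1271 CPM) and 3NC 3 (1389 CPM) and reached 2158 to 2719 CPM in the other 4.

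Genes of cholesterol synthesis and uptake did not pass either (0 of 23), with a median of −0.05 with and without 3NC 2. Idi1, an enzyme of that pathway, was at 111, 124 and 86.6 CPM in 3NC and 95.5, 53.7 and 51.0 CPM in 8276KD, and these ranges overlap.

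Immune genes had large negative fold changes in the full comparison, and these rested on 3NC 2. That library was singled out for high leukocyte and interferon genes, so their values here are a description and not independent support. Ptprc, the CD45 antigen of all leukocytes, was at 3.78, 95.5 and 2.91 CPM in 3NC and 1.98, 3.44 and 2.46 CPM in 8276KD. Gzmb, the granzyme of cytotoxic lymphocytes, was at 0.663, 99.9 and 0.338 CPM against 0, 1.17 and 0.259 CPM. Ifit2, an interferon-induced gene, was at 1.19, 84.1 and 1.83 CPM against 0.639, 1.49 and 2.27 CPM. In each, 3NC 2 alone was high and the other 5 libraries overlapped. The log2 fold changes of Ptprc, Gzmb and Ifit2 were −3.70, −6.13 and −4.30 with 3NC 2 and −0.35, −0.08 and −0.04 without it, and none passed the edgeR test in either fit. The 10 genes standing highest in 3NC 2 over the other 5 were Gzmb, Ly6c2, Ms4a4c, Ccl6, LOC100044068, Ccr2, Ifit2, Cxcl9, Serpina3g and Ifi211. They include surface proteins of monocytes, chemokines and interferon-induced genes.

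The same held for whole lists. All 21 genes of macrophages and general leukocytes had a fold change below 0 (median −1.24), whereas without 3NC 2 there were 12 above and 9 below 0 (median 0.04). Of all tested genes, 54.7% were below 0 with 3NC 2, and without it 49.6% were above and 50.4% below. For T and NK cells, 12 of 12 tested genes were below 0 (median −1.54), and 8 of 12 without 3NC 2 (median −0.14). Of 29 interferon response genes, 27 were below 0 (median −1.995) and 23 were above 0 without 3NC 2 (median 0.32, beside −0.002 over all genes). Of 15 antigen presentation genes, all were below 0 (median −1.61), and 5 were without 3NC 2 (median 0.18). H2-D1, a class I antigen-presenting molecule, was at 133, 566 and 38.0 CPM in 3NC and 150, 154 and 121 CPM in 8276KD. Chemokines and cytokines had medians of −4.13 and 0.15 over 7 tested genes. No member of these 5 lists passed the edgeR test in either fit.

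Summed over the macrophage list, 3NC 2 held 1112 CPM and the other 5 libraries 418.7 to 508.3 CPM. For T and NK cells the sums were 415.5 and 18.3 to 29.1 CPM. For the interferon list they were 1093 and 209.5 to 295.1 CPM. Markers of B cells did not stand apart in 3NC 2 (17.97 CPM, against 11.7 to 19.1 CPM in the others).

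**Figure D4:**
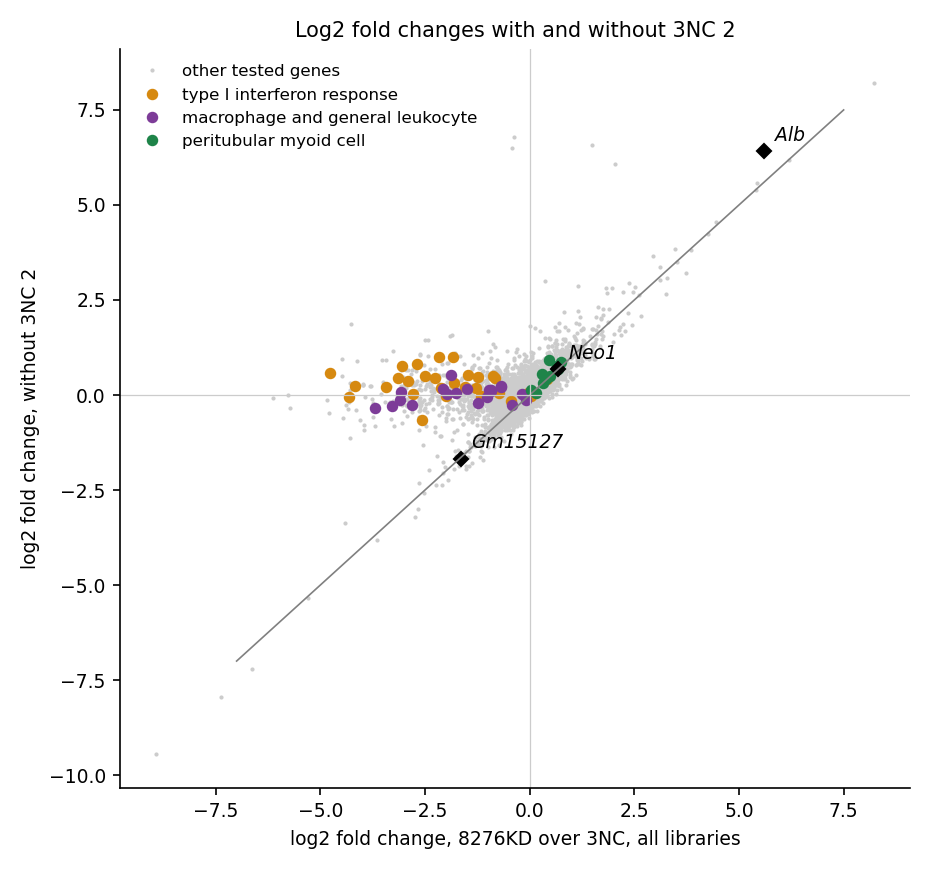
Log2 fold change of 8276KD over 3NC with all libraries (x axis) and without 3NC 2 (y axis), 1 point per tested gene; the diagonal marks equal values. Interferon (orange) and leukocyte (purple) genes reach far below 0 on the x axis and lie near 0 on the y axis, while Alb, Neo1, Gm15127 and the peritubular genes (green) lie near the diagonal.

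A sequence feature was more frequent at the starts of interferon genes than at all starts. Interferon-stimulated response elements hold a pair of GAAA words separated by any 2 bases, which was searched on both strands, overlaps allowed, from 250 bases before to 50 after the start. Of 21 interferon response genes with a promoter entry, 13 held it (61.9%) and 8 did not, against 1079 of 27025 genes with an entry (3.99%). Of the 9 entries among the 10 genes highest in 3NC 2, 1 held it, that of Ifi211. The matches of Isg15, Ifit1 and Rsad2 are shown in capitals with their flanks, on the strand of the gene (chr4:156200860-156200911, chr19:34640770-34640828 and chr12:26456548-26456587). A pair of TTTC words is the same repeat on the opposite strand.
Isg15: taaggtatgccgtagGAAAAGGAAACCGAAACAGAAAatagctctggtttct
Ifit1: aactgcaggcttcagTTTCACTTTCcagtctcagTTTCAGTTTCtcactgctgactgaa
Rsad2: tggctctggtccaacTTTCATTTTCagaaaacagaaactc
Isg15, a ubiquitin-like protein, was at 1.06, 25.3 and 0.338 CPM in 3NC and 0.447, 0.454 and 1.55 CPM in 8276KD. Rsad2, the antiviral enzyme viperin, was at 0.332, 37.1 and 0.271 CPM against 0.192, 0.389 and 0.777 CPM. Again 3NC 2 alone was high. The element is a description of the annotated starts, and binding was not measured. The list was made of genes known to respond to interferon, so its share of the element describes the list and not these libraries.

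A single knockdown library, 8276KD 1, was high in genes of the epididymis, the duct that stores sperm beside the testis. Crisp1, a secreted protein of its epithelium, was at 166 CPM in 8276KD 1, 9.79 in 8276KD 2 and 0.194 in 8276KD 3, and 32.6, 62.0 and 26.3 CPM in 3NC. Adam7, a surface protein of that epithelium, was at 83.9, 2.59 and 0.13 CPM against 4.58, 7.07 and 3.52 CPM. Lcn8, a lipocalin of its initial part, was at 40.7 CPM in 8276KD 1 and at 0 in the other 5. Akr1b7, an aldose reductase of adrenal and duct cells, was at 93.2, 2.92 and 0.389 CPM against 0.862, 0.877 and 0.473 CPM. Its log2 fold change of 5.43 ± 1.69 (edgeR adjusted p = 0.559) fell to 1.15 without 8276KD 1. Summed over the 16 genes of the list, 8276KD 1 held 535.7 CPM, 8276KD 2 and 3 held 95.7 and 67.8 CPM, and 3NC held 113.6 to 150.9 CPM. None of 6 tested members passed. Their median log2 fold change was 0.90 with all libraries, 1.75 without 3NC 2 (9 tested) and −1.99 without 8276KD 1.

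Peritubular smooth muscle genes were high in the same library. All 11 genes of that list had a fold change above 0, with and without 3NC 2 (medians 0.45 and 0.56), and none passed. Myh11, smooth muscle myosin, was at 30.4, 27.4 and 23.1 CPM in 3NC and 65.3, 32.2 and 31.03 CPM in 8276KD (0.67 ± 0.24), and Myl9, its light chain, at 37.2, 33.6 and 27.3 CPM against 53.0, 37.8 and 38.2 CPM (0.39 ± 0.14). Without 8276KD 1, 6 of 11 were above 0 and the median was 0.13. For Alb, Neo1 and Gm15127, 8276KD 2 and 3 were also clear of all 3NC libraries.

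**Figure D5:**
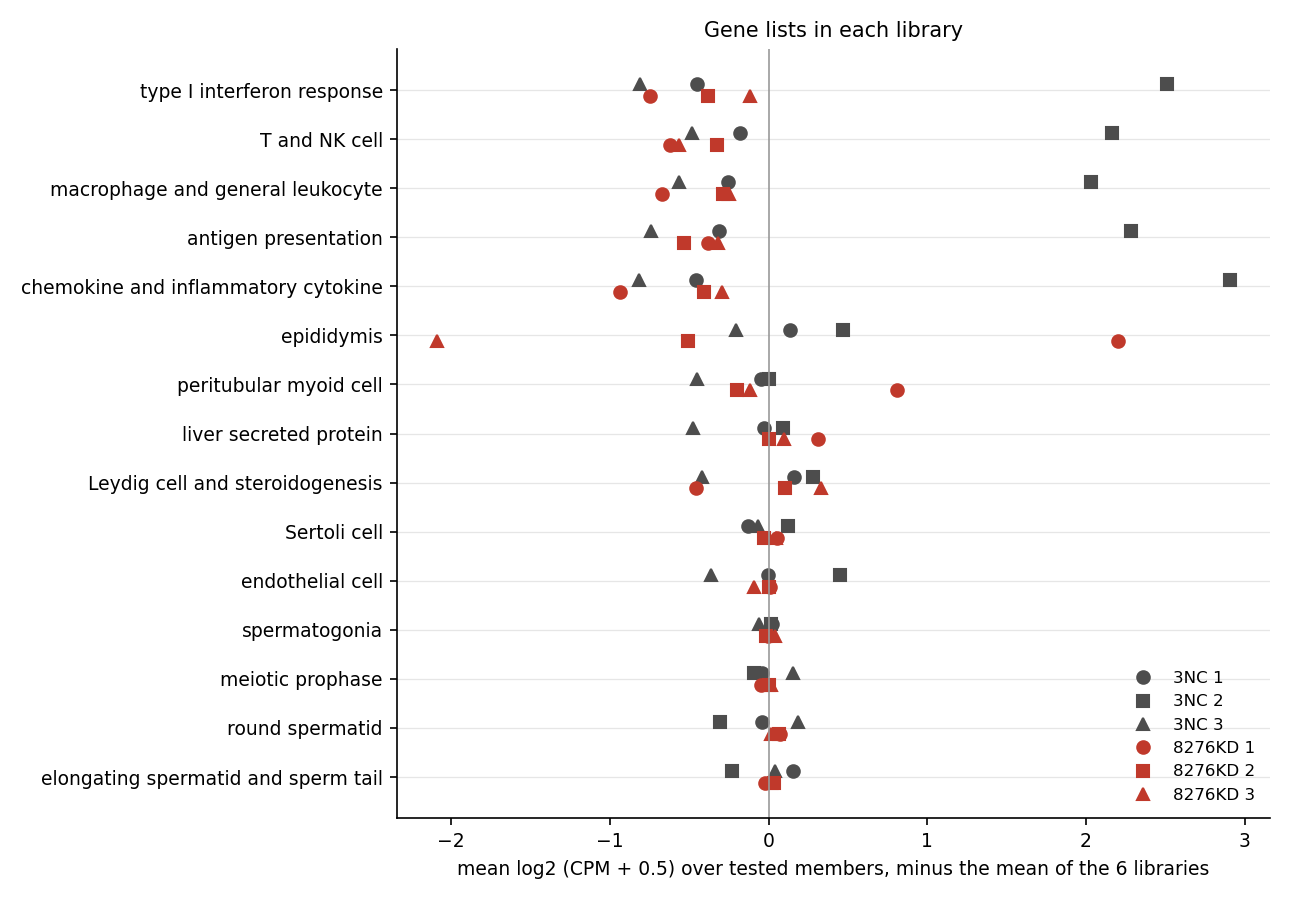
Mean log2 (CPM + 0.5) over the tested genes of 15 lists (y axis), minus the mean of the 6 libraries (x axis), for each library of 3NC (grey) and 8276KD (red). 3NC 2 lies at 2.03 to 2.91 in the 5 immune lists, 8276KD 1 at 2.20 in the epididymis and 0.81 in the peritubular list, and the germ cell lists lie within 0.31 of 0.

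No gene of the germ cell lists passed, and the direction of the spermatid lists depended on 3NC 2. No gene of spermatogonia (19 tested), meiotic prophase (27), pachytene to division (18), round spermatids (21) or elongating spermatids (21) passed the edgeR test. Their median log2 fold changes were 0.07, −0.02, −0.05, 0.03 and 0.05, and 0.0052, −0.07, −0.10, −0.06 and −0.07 without 3NC 2. Below 0 were 9, 17, 12, 5 and 9 genes with 3NC 2 and 9, 17, 14, 15 and 17 without it, so the round and elongating spermatid lists turned from mostly above to mostly below 0. Spo11, the enzyme that makes the DNA breaks of meiosis, was at 43.3, 44.9 and 46.5 CPM in 3NC and 31.5, 36.9 and 38.6 CPM in 8276KD, without overlap (−0.33 ± 0.10; edgeR adjusted p = 0.559). Prm1, a protamine that packs sperm DNA, was at 3511, 2702 and 3058 CPM against 2572, 2460 and 2496 CPM (−0.30 ± 0.12). Cdk1, the kinase that starts division, had −0.18 ± 0.08, also without overlap. Of all tested genes, 6.57% had every knockdown library below every 3NC library. Without 3NC 2 the log2 fold changes of Spo11, Prm1 and Cdk1 were −0.33, −0.39 and −0.16, and none passed the edgeR test. Spo11 was at 57.2 to 66.4 CPM in 5NC and 29.96 to 34.7 CPM in 8276OV. At an unadjusted p of 0.05, 4 of 21 elongating spermatid genes were reached without 3NC 2 and 1 of 21 with it (background 6.11% and 8.69%).

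Among Sertoli cell genes 16 of 25 were above 0 (median 0.12; 19 of 25 and 0.10 without 3NC 2) and none passed. Over all tested genes 45.3% were above 0, and 49.6% without 3NC 2. Gata1, a transcription factor of these cells, was at 7.43, 8.20 and 7.30 CPM in 3NC and 11.1, 10.6 and 10.6 CPM in 8276KD (0.49 ± 0.12; edgeR adjusted p = 0.559). Gata1 was also above all 3NC libraries in 5NC (9.74, 10.02 and 8.85 CPM) and in 8276OV (10.5, 9.40 and 9.42 CPM). Amh, the anti-Müllerian hormone, was at 1.39, 0.751 and 1.01 CPM against 2.36, 1.49 and 2.01 CPM. Both had 6 of 6 libraries apart by group. Every knockdown library was above every 3NC library in 6 of the 25 list genes and in 6.48% of all tested genes. Without 3NC 2 the log2 fold changes of Gata1 and Amh were 0.55 and 0.69. Of 14 endothelial genes, 7 were above 0 (median −0.0066), and 12 were without 3NC 2 (median 0.20). Cell-matrix adhesion genes went from 9 of 26 above 0 (median −0.09) to 24 of 26 without 3NC 2 (median 0.21), and stress and apoptosis genes from 4 of 25 (median −0.13) to 11 of 25 (median −0.04). Genes of piRNA silencing had a median of 0.03 (12 above and 7 below 0), and −0.05 without 3NC 2 (6 above and 13 below). Genes of DNA and histone modification had 0.03 (16 above and 11 below), and 0.06 without 3NC 2 (19 above and 8 below). No gene of these lists passed. Tet1, which oxidises methylated cytosine, was at 2.19, 1.31 and 1.22 CPM in 3NC and 0.575, 0.972 and 1.04 CPM in 8276KD (−0.86 ± 0.35).

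The overexpression libraries and their 5NC control share no library with the knockdown comparison, so they show how its genes behave beside another pair. Alb was at 2.89, 3.45 and 6.10 CPM in 8276OV and at 0.0628, 0.0706 and 0.144 CPM in 5NC. The difference between the knockdown and overexpression fold changes was 0.22 ± 0.82 (log2; edgeR adjusted p = 0.983), with an SE too wide to show that the effects are alike. Cyp21a1 was at 16.3, 11.9 and 12.9 CPM in 8276OV and 5.22, 5.65 and 4.60 CPM in 5NC. Neo1 was at 65.3, 68.3 and 57.9 CPM in 8276OV and 58.6, 66.1 and 62.9 CPM in 5NC, a difference between effects of 0.64 (edgeR adjusted p = 0.19). Gm15127 was at 4.66, 5.51 and 5.11 CPM in 8276OV and 8.11, 8.26 and 8.41 CPM in 5NC, a difference of −0.94 (edgeR adjusted p = 0.513). Hence no difference between the 2 effects was shown for these 3 genes. Of all genes, 3 of 16395 (0.0183%) passed the test of that difference, 6.73% had an unadjusted p under 0.05, and their own knockdown fold changes did not pass.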

How the data were processed

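Total RNA of F1 testes was sequenced, per the labels' protocols. The authors deposited 1 table with estimated counts per gene. The counting tool is not given in the sources used here, and mm10 is the build in the submitters' processing notes. Of the values, 88.15% were whole, 3571 of 20788 genes had fractions, and all were rounded. The table's 18 columns of samples outside these 4 groups were not used. Genes were filtered with edgeR 4.0.16 (filterByExpr, minimum count 10), scaled by TMM and fitted as group means over all 12 libraries (robust quasi-likelihood F-test, Benjamini-Hochberg). Fold changes are 8276KD over 3NC, and the SE is the fold change over the root of F. DESeq2 1.42.0 and limma 3.58.1 (R 4.3.3) were alternatives, and the test was first run on simulated data. Counting intervals are exact and cover counting error only.

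The genes and lists were chosen with earlier results of these data known. Genes are named if they passed with or without 3NC 2, were among the 10 smallest p-values in a direction (mean of at least 1 CPM in the higher group), stood highest in 3NC 2 (pseudocount 0.5 CPM), led a list, or were partners of a passing gene. Rplp0, Rps15a, Baz2a, Ifit1, Isg15, Rsad2, Lcn8, Star and Sirpb1a fall outside this rule and were named after their values were seen. The separate values of 1 list gene are not reported here. Relatives of Gm15127 were found by shared 31-base words of GENCODE M21 transcripts, in place of the planned protein identity. Positions and promoters come from RefSeq GRCm38.p6, matched for 16302 of 16395 tested genes. Libraries of 1 group always differed by more than sampling noise.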

Additional observations from a re-analysis of the deposited data

Results flagged for a closer look

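For 3 genes the effect of the knockdown against 3NC differed from the effect of the overexpression against 5NC by the test of the difference itself in edgeR. The difference in log2 fold change was −5.93 for Gm40011, −6.15 for A530064D06Rik and −2.69 for Dchs1, a large cadherin (edgeR adjusted p = 2.24e-05, 0.000403 and 0.00262). In each the 5NC libraries were the lowest, and for Dchs1 the 8276OV libraries were also above all those of the knockdown. Gm40011 was at 0.0628, 0.282 and 0.216 CPM in 5NC and at 7.79 to 11.8 CPM in the 9 libraries of the other groups. A530064D06Rik, whose counts were not all whole numbers, was at 0.126, 0.0706 and 0 CPM in 5NC and 4.46 to 7.43 CPM in the others. Dchs1 was at 5.40, 5.22 and 5.39 CPM in 5NC and 26.0, 20.6 and 30.5 CPM in 8276OV. It was at 22.4, 19.0 and 12.6 CPM in 3NC against 12.6, 14.7 and 12.8 CPM in 8276KD. The knockdown log2 fold changes of Gm40011, A530064D06Rik and Dchs1 were −0.16, 0.12 and −0.43, and none passed the edgeR test. The cause was not tested.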

How the results depend on the processing

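With all libraries 3 genes passed, and the count was also 3 with limma-voom, RLE size factors, no filter, a minimum count of 30, the non-robust fit and the replicate block. It was 2 with total counts, with the family sum and without fractional-count genes. It was 23 with DESeq2, 1 with sample quality weights, 0 with only the 6 libraries compared (831 at an unadjusted p of 0.05), and 1 to 9 with 1 library left out. Without 3NC 2, 2 genes passed, against 17 with DESeq2, 4 with no filter, 7 with the replicate block, 0 with only 5 libraries, and 1 to 4 with a further library left out. Limma-voom without 3NC 2 also gave 2, Gm15127 but not Alb. The 2 genes passing without 3NC 1 and 3NC 2, and the 4 without 3NC 2 and 3NC 3, held neither Alb nor Gm15127. For the difference between effects 3 passed, against 53 with DESeq2, 6 with the replicate block and 3 to 12 with 1 library left out. Same-numbered 3NC and 8276KD libraries had correlations of their deviations of 0.0377, −0.0393 and −0.0933. Differently numbered ones had −0.0587 to 0.0989. With 3 libraries per group, these values cannot show whether same-numbered libraries were paired. With the replicate block, Alb, Neo1 and Gm15127 had edgeR adjusted p of 0.0107, 0.0329 and 0.0244.

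With 3NC 2 included, Alb missed the threshold with quality weights (limma adjusted p = 0.626) and with 6 libraries (edgeR adjusted p = 0.13), as did Neo1 (0.06 and 0.367, and 0.0697 with total counts) and Gm15127 with 6 libraries (0.725). The median over all genes was −0.03 with TMM and RLE and −0.02 with total counts.

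Log2 fold changes that turned under limma-voom were Adam7 (−0.56) and Crisp1 (−2.38). Under quality weights they were Adam7 (−1.10), Crisp1 (−2.68), H2-D1 (0.28), Insl3 (−0.017) and Prm2 (−0.027). With 1 library left out, the fold changes that turned ranged from −0.022 to 0.22 for A530064D06Rik, −1.89 to 3.09 for Adam7, −0.027 to 0.20 for Apoh, −3.01 to 1.12 for Crisp1, −0.60 to 0.18 for Cyp17a1, −0.15 to 0.32 for Insl3, −1.75 to 0.14 for Ott and −0.084 to 0.15 for Prm2. Those that turned without 3NC 2 ranged from −4.87 to 0.12 for Ccl6, −4.54 to 0.26 for Ccr2, −1.30 to 0.73 for H2-D1, −4.85 to 0.30 for Ifi211, −3.71 to 0.45 for Ifit1, −4.28 to 0.22 for Isg15, −5.40 to 0.57 for Rsad2 and −5.33 to 0.50 for Serpina3g.

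List medians moved by more than the spread between libraries as follows. With no filter they were 0.91 (liver), −3.01 (T and NK), −1.10 (B cell) and 3.69 (epididymis). At a minimum count of 30 they were −0.042 (liver), −0.66 (B cell) and 0.49 (neutrophil). Chemokine genes had −1.65 with limma-voom, −0.30 with quality weights and −1.09 with 6 libraries, and spermatogonia genes 0.016 and 0.017 with the first 2. With 1 library left out the medians ranged from −2.16 to 0.23 (neutrophil), −2.47 to 0.32 (interferon), −1.99 to 0.18 (antigen presentation), −4.70 to 0.15 (chemokine), −0.17 to −0.050 (ribonuclease P and MRP), −0.019 to 0.089 (spermatogonia), −1.99 to 1.85 (epididymis), −0.13 to 0.039 (cell-cell adhesion) and −0.029 to 0.065 (DNA and histone modification). The cause of these shifts was not tested. Low counts limit Alb, Ttr, Gc and Mup3 to a few reads per control library.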
